A study of Mus musculus with 9 samples.

Results

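Chemokine ligands are small secreted proteins that guide leukocytes through receptors coupled to G proteins. CC and CXC ligands are named for the spacing of their first cysteines, and Cx3cl1 (fractalkine) is made on a membrane stalk from which it can be shed. In heart tissue, stromal and endothelial cells make Cxcl12 and Cx3cl1 at rest, whereas myeloid, endothelial and fibroblast cells release inflammatory ligands such as Ccl2, Ccl7 and Cxcl1 on stimulation. Of the 10 ligands chosen by symbol (Ccl2, Ccl6, Ccl7, Ccl9, Ccl11, Ccl24, Cxcl1, Cxcl10, Cxcl12 and Cx3cl1), 9 had a row among the 13890 genes of the count table, and all 9 were among the 13364 genes past the filter on low counts. Cxcl10 was not analysed here.

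The mRNA came from whole hearts of 9 male NSG mice, an immunodeficient strain without mature lymphocytes or NK cells, operated at 8 weeks of age and examined 3 weeks later. Sham mice (S, animals 2, 3 and 5) received saline in the spleen, mice labelled T (animals 11, 12 and 15) received HCT116 cells, a human colorectal cancer line that spreads from the spleen to the liver, and A + T mice (animals 20, 21 and 22) received HCT116 cells and weekly ACVR2B/Fc, a soluble activin receptor that binds activins and myostatin. All mice shared strain, sex and operation, and there was 1 library per animal and 3 per group. Fold changes of T over S in these libraries did not match those that the study's own gene list gives for tumour hosts over sham, and were close to those it gives for ACVR2B over sham, so T is a label here, and a value for T describes those 3 libraries whatever the mice had received. Markers of cardiomyocytes were abundant in every library, at summed levels of 38698 to 61067 CPM (counts scaled to a common library size with TMM factors, the CPM of edgeR).

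Libraries held 12392222 to 19732471 counts, so that 3 counts, the smallest level read as detection, stood for 0.152 to 0.281 CPM, and intervals cover counting error only. The ribosomal RNA gene Rn45s took 4.57% to 19.6% of the counts, and leaving it out changed no ligand call. Some libraries stood apart in markers of other tissues or cells. Airway and lung markers summed to 1278 CPM in A + T 22 and 167 CPM in T 12, against at most 3.20 CPM in the other libraries. Atrial cardiomyocyte markers summed to 3000 to 3084 CPM in S. They summed to 1547, 4554 and 861 CPM in T 11, T 12 and T 15, and to 793 to 2055 CPM in A + T. Apart from T 12, every T and A + T library thus lay below every S library. The part of atrial tissue in the ligand levels was not tested. Neutrophil markers (5 of 6 with a row) summed to 231 CPM in A + T 22, to between 19.2 and 29.7 CPM in the T libraries, the other A + T libraries and S 5, and to 4.15 and 6.09 CPM in S 2 and S 3. Macrophage markers (7 of 7) summed to 151 to 166 CPM in S, 159 to 187 CPM in T and 234 to 295 CPM in A + T. Markers of eosinophils, B cells and NK cells were not analysed here. In bulk heart RNA, fewer cells of a type and less RNA per cell cannot be told apart.

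Per length, Cxcl12 and Ccl6 were the most abundant of the ligands. On the deposited log2 scale, which divides by gene length and allows levels of different genes to be set side by side, the sham hearts held Cxcl12 at 4.28 ± 0.18 (SD, n = 3) and Ccl6 at 2.89 ± 0.45, and the ranges of these levels over the libraries did not meet. Below them came Ccl11 at 1.89 ± 0.27, Cx3cl1 at 1.64 ± 0.14, Ccl9 at 1.53 ± 0.49, Ccl2 at 1.35 ± 0.15, Ccl7 at 1.21 ± 0.38 and Ccl24 at 1.01 ± 0.15. Neighbours in the order overlapped among these 6. Cxcl1 was lowest, at -0.23 ± 0.17, and clear of Ccl24. Over all 9 libraries, Cxcl12 lay at percentile 80.4 of the genes tested and Ccl6 at 76.7, whereas Ccl7, at 20.6, and Cxcl1, at 15, were among the low ones.

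The order changed outside the sham hearts. In T, Ccl6 reached 4.49 ± 0.36 on this per-length scale, overlapping Cxcl12 at 4.38 ± 0.41, and Ccl9 rose to the third place at 2.72 ± 0.21, clear of Ccl11 at 1.93 ± 0.29. Ccl7 went to -0.13 ± 0.49. A + T hearts showed Ccl6 at 4.87 ± 0.62, again overlapping Cxcl12 at 4.46 ± 0.29, with Cxcl1 at 0.68 ± 0.19, overlapping Ccl7 at 0.65 ± 0.30. Of the per-length sum of the 9 ligands, Cxcl12 took 47.0%, 47.8% and 36.2% of it in the S libraries, 33.1%, 28.1% and 39.8% of it in T and 37.7%, 35.6% and 21.3% in A + T. Of what remained, Ccl6 and Ccl9 together took 36.9% to 49.8% in S, 66.8% to 76.1% in T and 58.8% to 79.2% in A + T.

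Differences between groups were tested with edgeR's quasi-likelihood test across all genes, with Benjamini-Hochberg adjustment and a call at an adjusted P-value under 0.05. T vs. S asks what differed in hearts labelled as tumour hosts, A + T vs. T what differed between the libraries of these 2 labels, and A + T vs. S how far hosts given ACVR2B/Fc stood from sham. By its labels A + T vs. T addresses ACVR2B/Fc, but with the label of T in doubt it is given only as a difference between the libraries. T vs. S called 3 of 9 ligands (Ccl6 and Ccl9 higher, Ccl7 lower), where 21.2% of all genes tested were called, 10.3% higher and 11% lower. A + T vs. T called 0 of 9, where 5.88% of all genes were called, 3.09% higher and 2.79% lower. By edgeR, 3 ligands (Ccl7, Ccl24 and Cxcl1, all higher in A + T) had an unadjusted P-value under 0.05, DESeq2 and limma-voom also called 0, and limma on the deposited log2 values called 1, Cxcl1. Only Ccl6 was called in A + T vs. S, where 8.31% of all genes were called, 4.67% higher and 3.64% lower. At an unadjusted P-value under 0.05 with a change of at least 1.5-fold, the thresholds of the study, 5 of 9 ligands passed in T vs. S (14.2% of all genes), 3 of 9 in A + T vs. T (8.11%) and 3 of 9 in A + T vs. S (8.91%). The median log2 fold change of the 9 ligands was 0.02 for T vs. S, 0.44 for A + T over T and 0.19 between A + T and S, and that of all genes was -0.0038, 0.0098 and 0.0034. T libraries enter the first and second comparisons with opposite sign, and S libraries are shared by T vs. S and A + T vs. S.

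**Figure D1:**
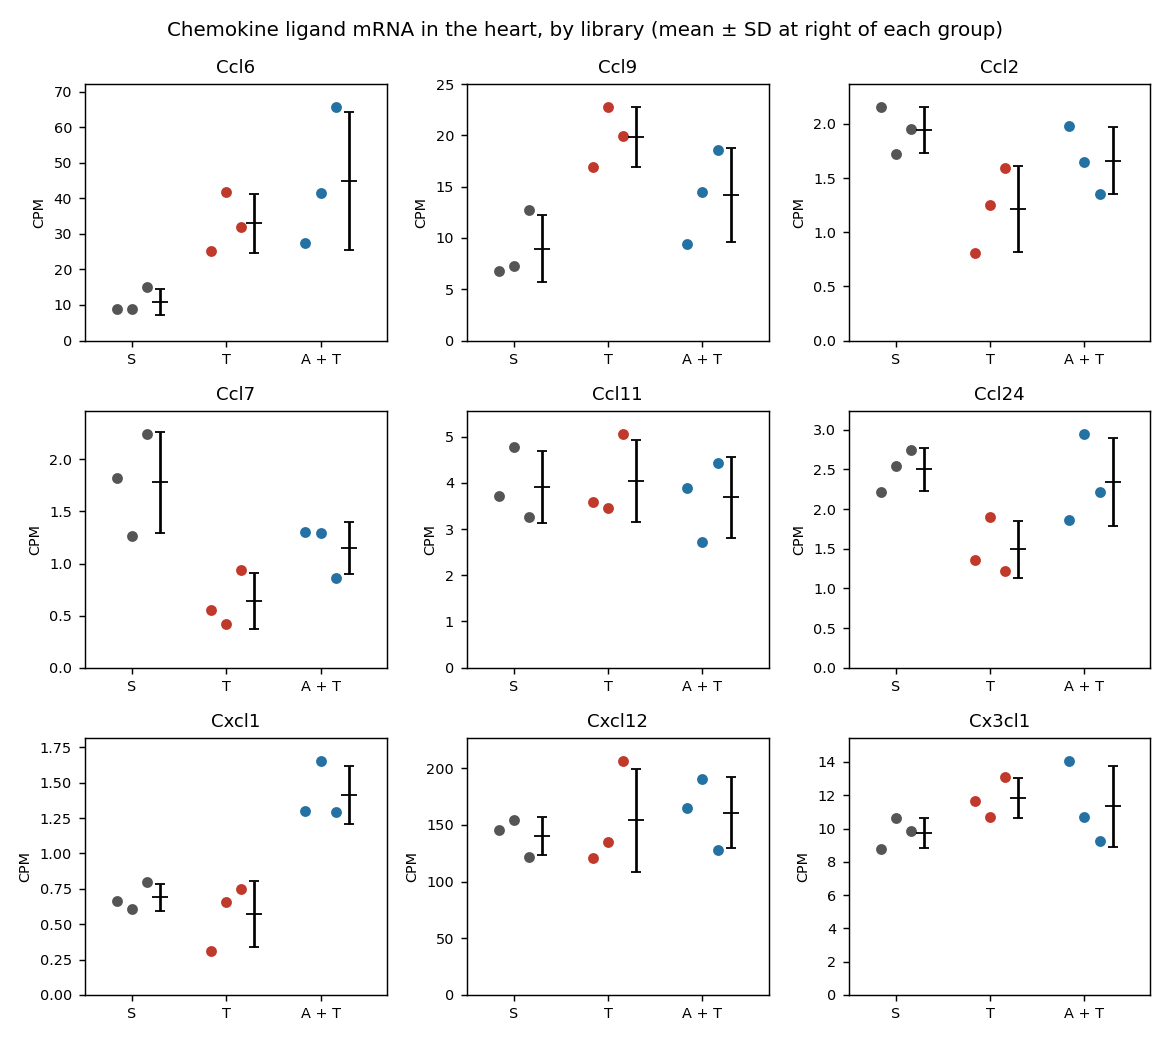
CPM of each ligand in the 9 libraries (points, in the order of the animal numbers) with the group mean ± SD beside them, for S, T and A + T. Ccl6 lies between 8.83 and 15.2 CPM in S and at 25.2 CPM or more elsewhere, Ccl7 lies at 0.936 CPM or less in T, and Cxcl1 lies at 1.29 CPM or more in A + T and at 0.796 CPM or less elsewhere.

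Ccl6 and Ccl9 are CC chemokines of rodents that attract myeloid cells, chiefly through Ccr1, and are made mainly by macrophages and other myeloid cells. Both genes lie on the minus strand of chromosome 11 (GRCm38, the assembly of mm10), Ccl9 at 83572919 to 83578636 and Ccl6 at 83587882 to 83593087, 9.25 kb apart and with 4 exons each. Ccl6 stood at 8.85, 8.83 and 15.2 CPM in the S libraries, 25.2, 41.8 and 32.0 CPM in T and 27.5, 41.4 and 65.7 CPM in A + T. Every T and A + T library lay above every S library, and the T and A + T libraries overlapped. The means were 10.96 ± 3.67, 32.98 ± 8.36 and 44.9 ± 19.3 CPM (SD, n = 3). Ccl6 was thus 3.05-fold higher in T than in S (log2 fold change 1.61 ± 0.33 SE, adjusted P = 0.0070, edgeR) and 4.14-fold higher in A + T than in S (2.05 ± 0.33, adjusted P = 0.0073). The T vs. S call held under 19 of 19 other settings, with log2 fold changes of 1.39 to 1.90, as did the A + T vs. S call, with 1.67 to 2.34. Between A + T and T, its log2 difference was 0.44 ± 0.31 (adjusted P = 0.43), and 0.054 without A + T 22.

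Ccl9 was at 6.80, 7.31 and 12.7 CPM in S, 16.9, 22.8 and 19.9 CPM in T and 9.40, 14.5 and 18.6 CPM in A + T. All T libraries exceeded all S libraries, while A + T spanned the space between and overlapped both. The rise over S in T was 2.24-fold (log2 1.17 ± 0.28, adjusted P = 0.014, edgeR). It lost the call without S 2 (log2 1.01) and without S 3 (1.04), with adjusted P-values of at most 0.061. The difference A + T vs. T was -0.49 ± 0.27 on the log2 scale (adjusted P = 0.31), and A + T vs. S was 0.68 ± 0.28 (adjusted P = 0.15), neither of them called.

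S 5, the sham library with the most Ccl6 and Ccl9, was also the sham library with the most neutrophil marker counts, and A + T 22 had the most of both Ccl6 and neutrophil markers in its group. T 12 and A + T 22 had the most Ccl6 (41.8 and 65.7 CPM) and the most Ccl9 (22.8 and 18.6 CPM) in their groups. They were also the libraries with airway and lung markers, at 167 and 1278 CPM. The parts of neutrophils and of lung tissue in these levels were not tested. With neutrophil markers at 24.3 CPM in S 5 and 22.1 CPM in T 11, Ccl6 was at 15.2 and 25.2 CPM in these libraries. This is 1 library of each group, which cannot show the part of neutrophils. Without A + T 22, the log2 fold change of Ccl6 in A + T vs. S was 1.67 (adjusted P = 0.0072). Relative to the summed macrophage markers, log2 Ccl6 was -3.90 ± 0.38 for S, -2.39 ± 0.27 for T and -2.61 ± 0.80 for A + T, and all T and all A + T libraries lay above all S libraries (2-sided exact permutation tests, P = 0.1, the smallest that 3 against 3 allow). On the same scale, Ccl9 was at -4.20 ± 0.43, -3.10 ± 0.14 and -4.24 ± 0.67, with T above both other groups (exact permutation P = 0.1 each) and A + T overlapping S (P = 1.0). The macrophage marker sums of S and T overlapped (151 to 166 and 159 to 187 CPM), so between T and S these ratios mostly repeat the ligand levels. The part of macrophages in the levels was not tested.

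Set against each other, Ccl6 and Ccl9 stood in a different proportion in each group. This ratio was chosen after the values were seen. The log2 ratio of Ccl6 to Ccl9 per length was 1.44, 1.34 and 1.32 in the S libraries, 1.64, 1.94 and 1.75 in the T libraries and 2.604, 2.57 and 2.88 in the A + T libraries. No group overlapped another. The mean ratio was 0.41 higher in T than in S, 0.91 higher in A + T than in T and 1.32 higher in A + T than in S. Without overlap, 2-sided exact permutation tests of 3 against 3 libraries can only give P = 0.1, as each did here. For a ratio chosen by its values, these tests add no support. Within each group the spread was small, with SDs of 0.07, 0.15 and 0.17, although the Ccl6 level itself varied over a log2 SD of 0.62 in A + T. Macrophage marker sums were higher in all A + T libraries than in any T or S library, and their part in this ratio was not tested.

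**Figure D2:**
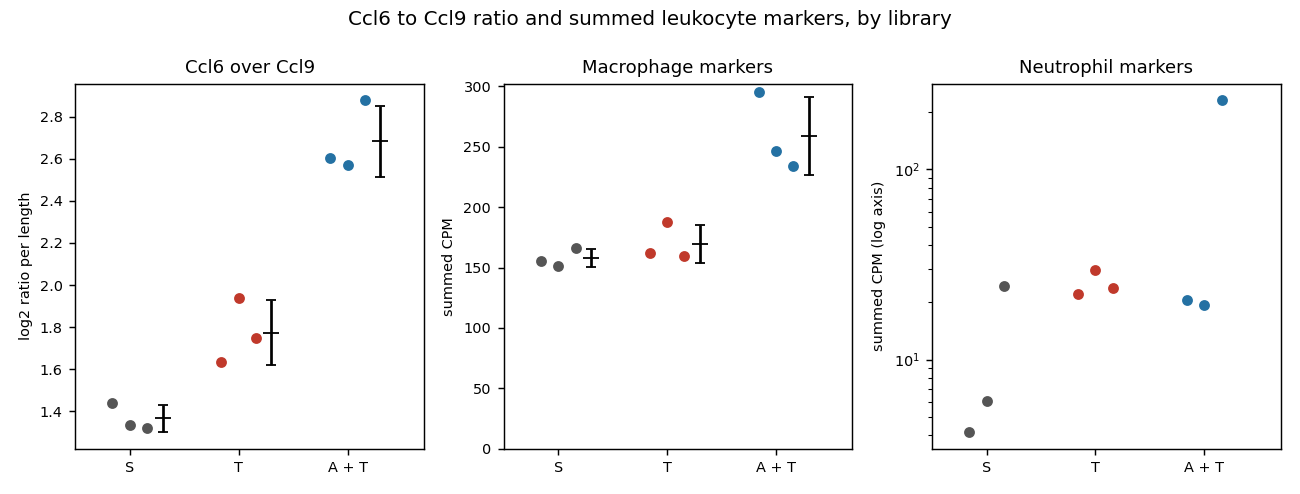
Left, log2 ratio of Ccl6 to Ccl9 per length in each library, with mean ± SD. Middle, summed CPM of the 7 macrophage markers, with mean ± SD, and right, summed CPM of the 5 neutrophil markers on a log axis. The ratio runs from 1.32 to 1.44 in S, 1.64 to 1.94 in T and 2.57 to 2.88 in A + T, and A + T 22 alone reaches 231 CPM of neutrophil markers.

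The bases before the RefSeq start site (GRCm38.p6) are shown for Ccl6 and Ccl9, which were called together in T vs. S, and for Cxcl1, whose A + T libraries stood clear of all others. Each is 250 bases long, 5′ to 3′ on the gene's strand, with capitals at matches to 4 motifs searched on both strands: the kappaB motif, the interferon response motif (a repeated GAAA spaced by 2 bases), the STAT motif TTCNNNGAA and the hypoxia response motif ACGTG. RefSeq promoters were matched for 5 of the 9 ligands.
Ccl6 (chr11:83593088-83593337, minus): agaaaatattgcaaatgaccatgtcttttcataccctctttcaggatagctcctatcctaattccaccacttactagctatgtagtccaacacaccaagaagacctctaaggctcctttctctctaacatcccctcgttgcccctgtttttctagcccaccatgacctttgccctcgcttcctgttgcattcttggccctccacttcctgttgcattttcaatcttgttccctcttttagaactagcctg
Ccl9 (chr11:83578637-83578886, minus): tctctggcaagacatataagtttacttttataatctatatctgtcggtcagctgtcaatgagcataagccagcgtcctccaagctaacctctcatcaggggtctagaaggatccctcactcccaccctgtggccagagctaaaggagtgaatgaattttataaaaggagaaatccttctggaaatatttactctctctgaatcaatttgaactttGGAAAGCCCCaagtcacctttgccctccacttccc
Cxcl1 (chr5:90890995-90891244, plus): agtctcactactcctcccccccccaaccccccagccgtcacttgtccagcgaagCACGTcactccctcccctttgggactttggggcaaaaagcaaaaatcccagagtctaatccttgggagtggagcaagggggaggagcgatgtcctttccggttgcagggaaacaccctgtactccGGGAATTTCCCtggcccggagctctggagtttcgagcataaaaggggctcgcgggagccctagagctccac

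The Ccl9 stretch held 1 kappaB match, at -35 to -26 from the start. Cxcl1 held a pair of overlapping kappaB matches, at -71 to -62 and -70 to -61, and a hypoxia response match at -196 to -192. The Ccl6, Cxcl12 and Cx3cl1 stretches held none of the 4. Among all 32851 RefSeq mouse promoters, 3.90% held the kappaB motif in the same 250 bases, 2.98% the interferon response motif, 7.02% the STAT motif and 16.6% the hypoxia response motif. These matches are descriptions of the letters in the window.

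Ccl2 and Ccl7 both bind Ccr2 and draw monocytes out of the marrow and into tissue, and their genes neighbour each other on the plus strand of chromosome 11, at 82035571 to 82037453 and 82045712 to 82047525. Ccl7 had 1.82, 1.27 and 2.24 CPM in S (33, 25 and 31 counts), 0.558, 0.416 and 0.936 CPM in T (9, 7 and 10 counts) and 1.30, 1.29 and 0.863 CPM in A + T (21, 18 and 14 counts). T was below S in every library, and A + T lay in between, overlapping T and S at its edges. The fall in T vs. S was 2.86-fold (log2 -1.52 ± 0.37, adjusted P = 0.017, edgeR). With so few counts, the 95% Poisson interval of the lowest S library, 0.821 to 1.87 CPM, overlapped that of the highest T library, 0.449 to 1.72 CPM. The call was lost without S 2, S 5, T 11 or T 12, at log2 fold changes of -1.48 to -1.27 and adjusted P-values of at most 0.063. A + T vs. T gave 0.90 ± 0.39 (adjusted P = 0.20) and A + T vs. S gave -0.61 ± 0.34 (adjusted P = 0.28).

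Ccl2 was at 2.16, 1.73 and 1.95 CPM in S, 0.805, 1.25 and 1.59 CPM in T and 1.98, 1.65 and 1.36 CPM in A + T. Its S libraries lay above all T libraries, and A + T overlapped both groups. The log2 fold change was -0.70 ± 0.29 in T vs. S (adjusted P = 0.11, edgeR), 0.48 ± 0.30 in A + T vs. T (adjusted P = 0.38) and -0.22 ± 0.28 in A + T vs. S (adjusted P = 0.65). None of these passed the test, here or in any of 19 other settings. Fibroblast markers (6 of 6) summed to 1348 to 1534 CPM in S, 814 to 938 CPM in T and 1020 to 1484 CPM in A + T, and endothelial markers (6 of 6) to 766 to 901, 474 to 588 and 594 to 715 CPM. Their part in the levels of Ccl2 and Ccl7 was not tested.

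Ccl11 and Ccl24 are eotaxins, ligands of Ccr3 on eosinophils. Ccl11, next to Ccl7 on chromosome 11 (82057823 to 82062955, plus strand), was at 3.70, 4.77 and 3.25 CPM in S, 3.59, 3.45 and 5.05 CPM in T and 3.90, 2.73 and 4.44 CPM in A + T. The groups overlapped fully, and the log2 fold changes of 0.02 ± 0.24, -0.11 ± 0.24 and -0.09 ± 0.24 (T over S, A + T over T and A + T over S) were within their errors. Ccl24, on chromosome 5 (135569937 to 135573049, minus strand), was at 2.21, 2.54 and 2.75 CPM in S, 1.36, 1.90 and 1.22 CPM in T and 1.86, 2.94 and 2.22 CPM in A + T. Its T libraries were all below its S libraries. The T vs. S log2 fold change of -0.72 ± 0.26 missed the threshold (adjusted P = 0.078, edgeR), passed it with limma on the deposited log2 values (adjusted P = 0.037) and passed it without T 12 and A + T 22 (-0.93, adjusted P = 0.049). For A + T vs. T it was 0.62 ± 0.27 (adjusted P = 0.20) and for A + T vs. S -0.10 ± 0.25 (adjusted P = 0.84).

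Cxcl1, a ligand of Cxcr2 that attracts neutrophils, lies on chromosome 5 (90891241 to 90893115, plus strand). It had the lowest mean level of the ligands in S and in T, but not in A + T, with 0.664, 0.609 and 0.796 CPM in S, 0.310, 0.654 and 0.749 CPM in T and 1.30, 1.65 and 1.29 CPM in A + T, from 12, 12, 11, 5, 11, 8, 21, 23 and 21 counts. Every A + T library was above every other library, and S and T overlapped. A + T vs. T gave a log2 fold change of 1.33 ± 0.36, which missed the threshold narrowly (adjusted P = 0.056, edgeR) and passed it with limma on the deposited log2 values (1.19, adjusted P = 0.029). Without A + T 22, the library with the many neutrophil marker counts, it was 1.39 (adjusted P = 0.065). A + T vs. S gave 1.04 ± 0.34 (adjusted P = 0.084), and T vs. S gave -0.29 ± 0.38 (adjusted P = 0.62).

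Cxcl12 retains progenitor and immune cells through Cxcr4 and is scavenged by Ackr3, and Cx3cl1 binds Cx3cr1 on monocytes and macrophages. Cxcl12 (chromosome 6, 117168535 to 117181367, plus strand) was at 145, 154 and 122 CPM in S, 121, 135 and 206 CPM in T and 165, 190 and 127 CPM in A + T. Cx3cl1 (chromosome 8, 94772009 to 94782427, plus strand) was at 8.79, 10.6 and 9.84 CPM in S, 11.6, 10.7 and 13.1 CPM in T and 14.0, 10.7 and 9.24 CPM in A + T. Its T libraries lay just above its S libraries and its A + T libraries overlapped both. Log2 fold changes of Cxcl12 were 0.13 ± 0.20, 0.06 ± 0.20 and 0.19 ± 0.20, and those of Cx3cl1 were 0.27 ± 0.16, -0.06 ± 0.16 and 0.22 ± 0.16 in the 3 comparisons. No call was made for either gene, with adjusted P-values of 0.26 to 0.88.

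Across the 9 ligands, 6 had no overlap between T and S (Ccl6, Ccl9 and Cx3cl1 higher, Ccl2, Ccl7 and Ccl24 lower), where 42.6% of all genes tested had none, 21.1% with T higher and 21.5% with T lower. Between A + T and T, only Cxcl1 had no overlap, against 25.4% of all genes (12.3% higher and 13.1% lower in A + T). Ccl6 and Cxcl1 had none between A + T and S, against 32.4% of all genes (16% higher and 16.5% lower in A + T). Of the chromosomal neighbours, Ccl6 and Ccl9 both rose in T vs. S, whereas among Ccl2, Ccl7 and Ccl11 Ccl7 alone was called.

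**Figure D3:**
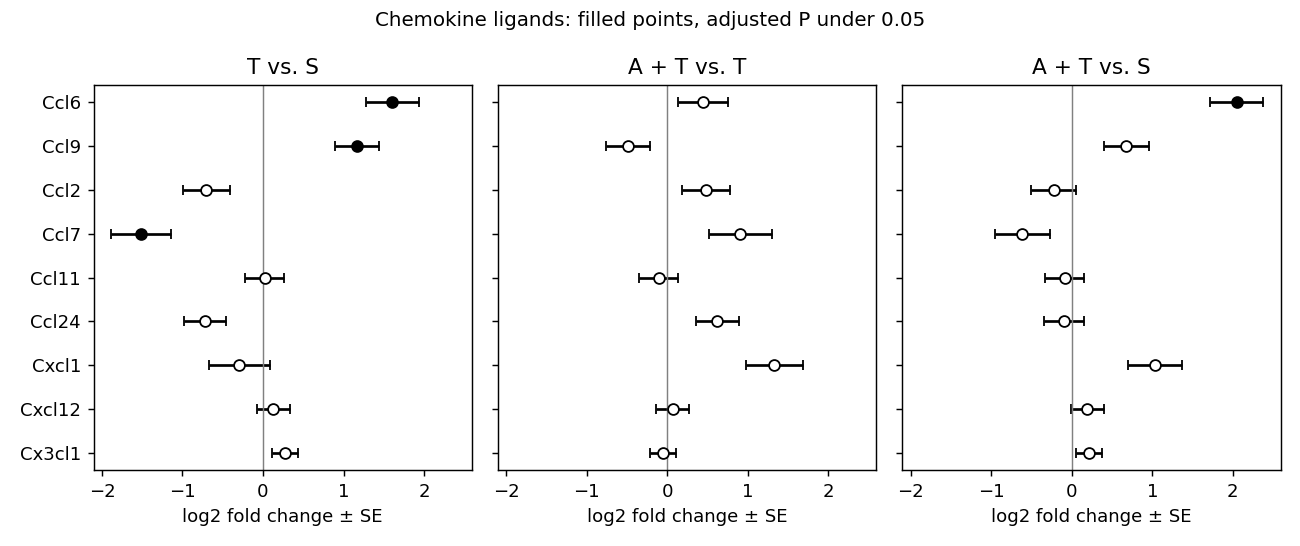
Log2 fold change ± SE of each ligand, in 1 panel per comparison, with filled points where the adjusted P-value was under 0.05. Filled points are Ccl6, Ccl9 and Ccl7 in T vs. S and Ccl6 in A + T vs. S. The panel of A + T vs. T has none, with its largest value, 1.33, at Cxcl1.

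By likeness of log2 CPM over the 9 libraries, among 12678 genes with a mean of at least 1 CPM, Ccl6 was most like Csf2rb, a subunit of the receptors for GM-CSF and related cytokines (Pearson's r = 0.970), and Thoc7 (0.963). Ccl9 was most like Maff and Arid5a (0.972 and 0.962), Ccl7 most like Usp45 and Hic1 (0.965 and 0.962), and Cxcl1 most like Dcaf17 and Cpne1 (0.967 and 0.958). These are descriptions over libraries that fall into 3 groups and share their depths and scaling.

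Among 30 other chemokine ligands listed, 12 had a row and 10 were tested. Of these, 1 was called higher and 3 lower in T vs. S, where 10.3% of all genes were called higher and 11% lower, and the list had a median log2 fold change of -0.26. Between A + T and T, 2 were called higher and 2 lower, against 3.09% and 2.79% of all genes, with a median of 0.44. Without A + T 22, these counts were 1 and 4, and 1 and 2. Ccl8, a monocyte chemoattractant, was at 0.276, 0.508 and 0.651 CPM in S, 2.79, 3.98 and 2.25 CPM in T and 0.186, 0.00 and 0.0616 CPM in A + T (3, 0 and 1 counts). It rose in T vs. S (log2 2.67 ± 0.44, adjusted P = 0.0023, edgeR) and fell in A + T vs. T (adjusted P = 0.0027). From the pooled counts of 136 and 4, Ccl8 was 36.1 times as abundant in T as in A + T (95% exact interval 13.8 to 134, counting error only). Ccl12, like Ccl2 a ligand of Ccr2, also fell in A + T vs. T (adjusted P = 0.021), with pooled counts of 45 and 6, a ratio of 7.96 (3.39 to 22.8).

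Cxcl9 and Cxcl16 moved the other way. Cxcl9, a ligand of Cxcr3 induced by interferon gamma, was at 3.32, 5.53 and 3.47 CPM in S, 0.929, 0.594 and 1.03 CPM in T and 1.98, 2.08 and 2.65 CPM in A + T. The groups did not overlap. It was lower in T than in S (log2 -2.29 ± 0.31, adjusted P = 0.00088, edgeR) and higher in A + T than in T (1.41 ± 0.32, adjusted P = 0.031), the latter not called without A + T 22 (1.27, adjusted P = 0.058). Cxcl16, which binds Cxcr6 and is made on the membrane like Cx3cl1, was at 16.1, 12.5 and 14.3 CPM in S, 6.13, 6.66 and 7.67 CPM in T and 15.2, 10.98 and 17.8 CPM in A + T. It fell in T vs. S (-1.07 ± 0.18, adjusted P = 0.0029) and rose in A + T vs. T (1.11 ± 0.18, adjusted P = 0.010). Cxcl14, named after its values were seen, was the third ligand lower in T vs. S (-0.94 ± 0.20, adjusted P = 0.0083).

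Of 18 chemokine receptors listed, 6 had a row, all of which passed the filter, and Ccr3 and Cxcr3 were not analysed here. In A + T vs. T, 4 of 6 were called, all higher, against 3.09% of all genes. Set against S, T had 1 of 6 called, lower, against 11% of all genes (2 of 6 without A + T 22, when Cx3cr1 was also called), and A + T had 2 of 6 called, both higher, against 4.67%. Ccr1, the main receptor of Ccl6 and Ccl9, was at 1.44, 2.03 and 1.01 CPM in S, 2.79, 5.47 and 2.34 CPM in T and 1.48, 4.24 and 9.67 CPM in A + T. Its T vs. S log2 fold change of 1.24 ± 0.60 was not called (adjusted P = 0.17, edgeR), nor was its A + T vs. S value of 1.75 ± 0.59 (adjusted P = 0.094), although all T libraries lay above all S libraries.

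Ccr2, the receptor of Ccl2 and Ccl7, was at 0.719, 1.27 and 1.23 CPM in S, 1.80, 2.62 and 1.68 CPM in T and 7.67, 3.02 and 10.7 CPM in A + T. The groups did not overlap. It was higher in A + T than in T (log2 1.80 ± 0.41, adjusted P = 0.034, edgeR), which was not called without A + T 22 (1.38, adjusted P = 0.058), and higher in A + T than in S (2.74 ± 0.44, adjusted P = 0.0073).

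Cxcr4 was at 6.25, 6.70 and 4.77 CPM in S, 1.36, 1.55 and 2.43 CPM in T and 7.98, 4.02 and 7.58 CPM in A + T. This receptor of Cxcl12 was lower in T than in S (log2 -1.77 ± 0.31, adjusted P = 0.0032, edgeR) and higher in A + T than in T (1.91 ± 0.31, adjusted P = 0.0092), whereas Cxcl12 itself was not called in either comparison. Cx3cr1 was at 4.76, 5.58 and 4.70 CPM in S, 2.79, 2.44 and 4.02 CPM in T and 10.6, 6.75 and 4.44 CPM in A + T. It rose in A + T vs. T (1.26 ± 0.31, adjusted P = 0.041), and in T vs. S it was at -0.73 ± 0.31 (adjusted P = 0.12, and 0.043 without A + T 22). Cxcr2, the receptor of Cxcl1, reached 20.8 CPM in A + T 22 and stayed between 0.221 and 2.85 CPM in the other libraries, and it was not called (A + T vs. T 1.73 ± 0.96, adjusted P = 0.32, and -0.65 without A + T 22).

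**Figure D4:**
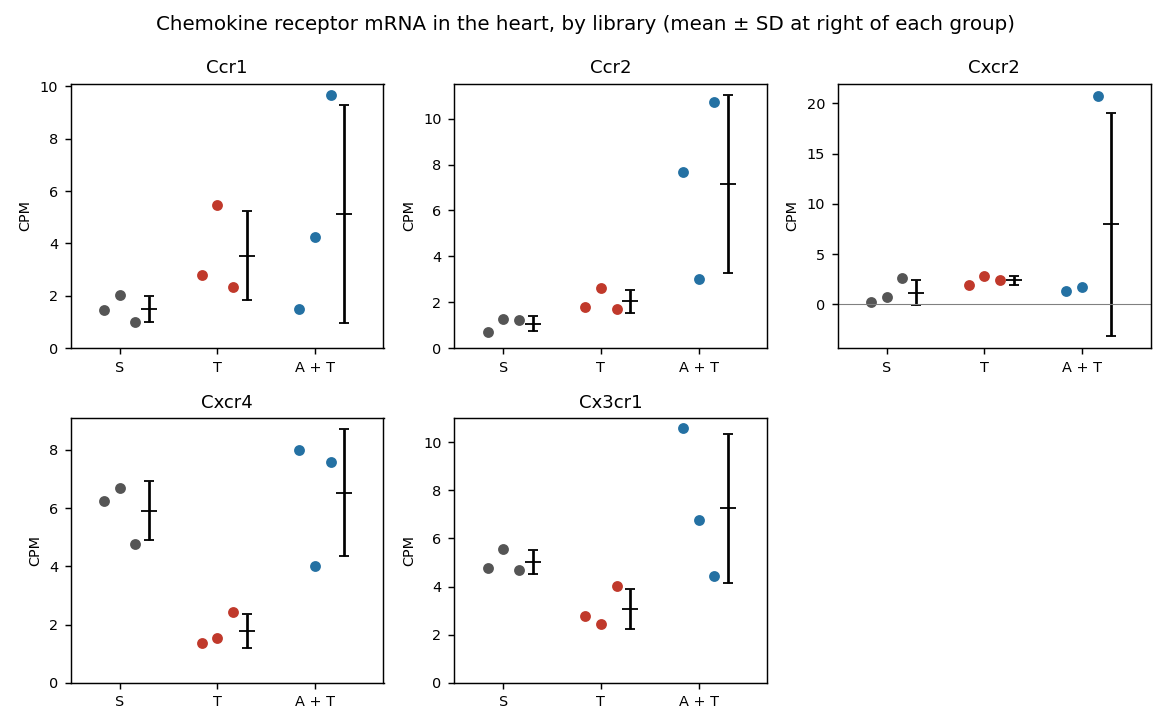
CPM of Ccr1, Ccr2, Cxcr2, Cxcr4 and Cx3cr1 in the 9 libraries, with the group mean ± SD beside them. Ccr2 lies at 3.02 CPM or more in A + T and at 2.62 CPM or less elsewhere, Cxcr4 lies at 2.43 CPM or less in T and at 4.02 CPM or more elsewhere, and Cxcr2 at 20.8 CPM in A + T 22 alone.

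The receptors called higher in A + T are carried by monocytes and macrophages, among other cells. Of 7 macrophage markers, 4 were called higher in A + T vs. T, against 3.09% of all genes, and 6 in A + T vs. S, against 4.67%. In both comparisons 0 were called lower, and the same counts held without A + T 22. Of the T vs. S tests of these markers, 2 of 7 were called higher, against 10.3% of all genes. Of 6 resident macrophage markers, 0 were called in A + T vs. T, with 5 log2 fold changes above 0 and 1 below. This depended on A + T 22, without which Timd4 was called higher (1.22, adjusted P = 0.035, edgeR) and Lyve1 lower (-0.60, adjusted P = 0.031). Cbr2 then also turned below 0 (-0.65, not called). Of 5 monocyte markers, 1 was called higher in A + T vs. T, Ccr2 itself, with 4 above 0 and 1 below. Without A + T 22, 0 monocyte markers were called, and Plac8 and Chil3 turned below 0. The part of macrophage number in the receptor levels was not tested. Atypical receptors bind chemokines without G protein signals and clear or retain them. Of 5 listed, 4 were tested and 2 were called lower in T vs. S, against 11% of all genes, namely Ackr3, which scavenges Cxcl12 (93.5, 112 and 104 CPM in S, 71.1, 59.4 and 63.0 CPM in T and 81.2, 82.9 and 66.2 CPM in A + T, log2 -0.67 ± 0.11, adjusted P = 0.0024, edgeR), and Ackr4 (-1.54 ± 0.32, adjusted P = 0.0075). Ackr2, a scavenger of CC ligands, was not called (-0.10 ± 0.33 in T vs. S), and Ackr1 was removed by the filter.

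Enzymes and proteoglycans that cut, shed or hold chemokines made up a list of 13, all tested. T vs. S had 3 called lower and none higher, against 11% and 10.3% of all genes, with a median log2 fold change of -0.33. Those called were Mmp2, a gelatinase that can trim Cxcl12 (log2 -1.19 ± 0.23, adjusted P = 0.0048, edgeR), the heparan sulphate polymerase Ext1 (-0.56 ± 0.10, adjusted P = 0.0037) and the sheddase Adam17 (-0.46 ± 0.12, adjusted P = 0.024). These counts depended on A + T 22, without which 6 were lower and 1 was higher. Mmp12, an elastase of macrophages, was the gene called in A + T vs. T, at 0.558, 0.238 and 1.03 CPM in T and 12.7, 2.01 and 3.08 CPM in A + T (3.38 ± 0.76, adjusted P = 0.032). It was 1 of 13, against 3.09% of all genes called higher, and without A + T 22, 4 of the 13 were higher and 1 lower in that comparison.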

How the data were processed

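Heart mRNA of 9 mice (3 groups of 3) was sequenced by the authors as 75-base paired ends after a KAPA mRNA library preparation. Per the study's methods, reads were aligned to mm10 with STAR and counted by strand on RefSeq genes with featureCounts, and the authors deposited raw counts per gene and log2 values. The difference between the deposited log2 values and log2 CPM was constant for each gene (median SD over libraries 1.49e-05), as for a value per gene length. The 3443 blank rows were dropped.

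Genes under 0.5 CPM in more than 4 libraries were removed. Counts were tested with edgeR 4.0.16 (R 4.3.3), TMM normalization and all 9 libraries in 1 fit, which was tested on simulated data, and the SE is the log2 fold change over the square root of F. The methods do not name the test behind the study's fold changes. Alternatives used DESeq2 1.42.0, limma 3.58.1, other scalings, filters and thresholds, and each library left out. Leaving out T 12 with A + T 22 was added after seeing the data. The members and lists were chosen with earlier results of these data known. Named genes were all ligands, 11 receptors by name, up to 4 of each other list with the largest called changes, and the 2 genes most like each of the 4 ligands that changed most. Libraries were numbered by animal, and nothing else says that they came from separate preparations. Libraries of a group differed beyond counting noise (chi-square per gene 7.63 or more). Coordinates are from GENCODE M21. Some listed genes are not reported here.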

Additional observations from a re-analysis of the deposited data

How the results depend on the processing

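Calls among the ligands changed with the libraries and thresholds used. In T vs. S, 3 ligands were called, 1 to 3 with a library left out and 5 at an unadjusted P-value under 0.05 with 1.5-fold. In A + T vs. T, 0 were called, 1 with the deposited log2 values, 1 at an adjusted P-value under 0.1 and 3 at the unadjusted threshold. In A + T vs. S, 1 was called, 2 at an adjusted P-value under 0.1 and 3 at the unadjusted threshold. Ccl7 could not be tested with at least 10 counts in every library, nor could Cxcl1.

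Over all genes, 2838 were called in T vs. S (1371 higher, 1467 lower), 1636 by library size only (585 higher, 1051 lower), 2838 by upper-quartile scaling (1216 higher, 1622 lower) and 1765 to 3786 with a library left out. In A + T vs. T, 786 were called (413 higher, 373 lower), 1200 with DESeq2, 438 by library size only (314 higher, 124 lower), 759 by upper-quartile scaling (497 higher, 262 lower), 217 with the compared groups alone, 1499 at an adjusted P-value under 0.1 and 130 to 1006 with a library left out. In A + T vs. S, 1110 were called, 555 by library size only, 2041 at an adjusted P-value under 0.1 and 269 to 1086 with a library left out. No scaling moved the median of all genes by 0.1 (log2). The causes were not tested.

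The sign turned only for ligands that were not called. For Ccl11 in T vs. S it became -0.026 with limma-voom, -0.0037 by upper-quartile scaling, -0.028 by library size only and -0.15 to 0.20 with a library left out. With a library left out, Ccl11 ranged from -0.26 to 0.070 in A + T vs. T and from -0.24 to 0.085 in A + T vs. S, Cxcl1 from -0.48 to 0.024 and Cxcl12 from -0.13 to 0.28 in T vs. S, Cxcl12 from -0.083 to 0.33 and Cx3cl1 from -0.24 to 0.073 in A + T vs. T, and Ccl24 from -0.29 to 0.045 in A + T vs. S. Without T 12 and A + T 22 together, Cx3cl1 in A + T vs. T was 0.0076. No paired analysis was possible because the groups share no animal numbers. Depth limits Ccl7 and Cxcl1, which had 5 to 33 counts per library.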

Other observations

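Other lists bear on how chemokine genes are switched on. Of 16 genes of the interferon pathway and its targets, 15 were tested and 8 were called higher and 0 lower in T vs. S, where 10.3% of all genes were called higher, and without A + T 22 8 were higher and 2 lower. Ifit1, which binds foreign RNA, rose from 8.35, 11.5 and 9.98 CPM in S to 28.9, 37.5 and 38.9 CPM in T (log2 1.81 ± 0.37, adjusted P = 0.0070, edgeR), Usp18, a brake on the interferon receptor, rose by 1.68 ± 0.32 (adjusted P = 0.0049), Irf9, a factor of the interferon response, by 1.53 ± 0.18 (adjusted P = 0.00053) and the GTPase Iigp1 by 1.49 ± 0.22 (adjusted P = 0.0016). Isg15 and Ifit3, of the same list and named after their values were seen, were at 0.13 ± 0.37 and -0.07 ± 0.35, and neither was called. Likewise chosen afterwards, in A + T vs. T Irf1 was called higher (0.73 ± 0.16, adjusted P = 0.028), and without A + T 22 4 genes were lower. Cxcl9, an interferon target, was lower in T.

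Of 20 genes of the NF-kB pathway and its targets, 18 were tested, and in T vs. S 1 was higher and 3 were lower, against 10.3% and 11% of all genes, with a median log2 fold change of 0.03. Tnfaip3, which restrains NF-kB signals, was lower (-1.14 ± 0.16, adjusted P = 0.0012), as were the adhesion molecule Vcam1 (-1.18 ± 0.20, adjusted P = 0.0032) and the inhibitor Nfkbie (-1.10 ± 0.28, adjusted P = 0.019), and Bcl3 was higher (0.68 ± 0.16, adjusted P = 0.015). Vcam1 marks endothelial cells among others, and 4 of 6 endothelial markers were called lower in T vs. S, against 11% of all genes. The part of endothelial cells in the Vcam1 level was not tested. Among 12 genes of type 2 and glucocorticoid signals, 10 were tested, and in T vs. S 2 were higher and 1 lower (3 and 1 without A + T 22), against the same shares of all genes. Il4ra, the interleukin-4 receptor, was higher in T vs. S (0.88 ± 0.19, adjusted P = 0.0097) and the glucocorticoid receptor Nr3c1 was lower (-0.48 ± 0.07, adjusted P = 0.0013). Fkbp5, a glucocorticoid target, rose in T vs. S (1.59 ± 0.23, adjusted P = 0.0013) and fell in A + T vs. T (-1.58 ± 0.23, adjusted P = 0.0071).

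Arg1, an arginase of alternatively activated macrophages that was named after its values were seen, was at 0.0508 to 0.362 CPM in S, 0.248, 4.40 and 1.87 CPM in T and 1.30, 34.0 and 6.53 CPM in A + T, so that A + T 21 held most of its counts.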
